A study of Mus musculus with 8 samples.

Results

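The proteasome and immunoproteasome genes were taken from the deposited table of gene expression as the protein-coding genes whose symbol begins with Psm, a letter from a to g and a number, without pseudogenes. Of 54 symbols that matched, 4 were pseudogenes, which left 50 genes of 53715 in the table. Of these, 48 reached 1 RPKM (reads divided by gene length in kilobases and by library size) in at least 2 libraries and entered the test. They were sorted into 5 interferon-inducible genes (Psmb8, Psmb9, Psmb10, Psme1 and Psme2), 34 genes called standard subunits, and 11 other genes. Standard means Psma1 to Psma7 and Psmb1 to Psmb7 for the 20S core, and Psmc1 to Psmc6 and Psmd1 to Psmd14 for the 19S cap. Of these, Psmd5, Psmd9 and Psmd10 are known as chaperones of cap assembly and are not subunits of the finished cap.

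Mouse macrophages that lack endogenous Sting carried 1 of 4 transgene states, and polyadenylated RNA was sequenced from 2 libraries of each. STING is the adaptor that turns cytosolic cyclic dinucleotides into an interferon and NF-κB response, and its C-terminal tail recruits the kinase TBK1. The zfCTT libraries came from Sting-/- cells that stably express mouse STING with the tail of the zebrafish protein. The mSTING libraries came from Sting-/- cells with mouse STING, the dCTT libraries from Sting-/- cells with STING that lacks the tail, and the no_transgene libraries from Sting-/- cells with no STING transgene. The titles of the no_transgene libraries name the retroviral vector MSCV, and the transgene label does not state whether these cells carry it empty. The reading of the labels zfCTT and dCTT follows the title of the study and what is known of it. All cells, those without a transgene included, had been given 500 µg/mL of the mouse STING agonist CMA (10-carboxymethyl-9-acridanone) for 4 h on 10 cm dishes, so none of the libraries shows the unstimulated state. The labels do not state whether each group's pair of libraries represents independent cultures, or whether a line is 1 clone. P-values therefore reflect variation among the libraries sequenced, which may be technical variation alone. Below, zfCTT and mSTING are called tailed, and dCTT and no_transgene tailless.

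The proteasome is the protease that degrades ubiquitin-tagged proteins. Its 20S core is a barrel of alpha and beta rings, in which Psmb5, Psmb6 and Psmb7 encode the standard catalytic subunits, and its 19S cap recognises and unfolds substrates. Interferon induces Psmb8 (LMP7), Psmb9 (LMP2) and Psmb10 (MECL-1), which take the places of Psmb5, Psmb6 and Psmb7 in newly built cores, and Psme1 and Psme2 (PA28 alpha and beta), which form a ring that opens the core. This immunoproteasome is known for cutting peptides that are then presented on MHC class I, and macrophages hold some of it without stimulation.

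Promoter windows of 4 genes are shown: 3 of the interferon-inducible genes, and Psmd4, the standard subunit whose tailed libraries all stood above the tailless ones. They are RefSeq windows of build GRCm38.p6, from 250 bases before to 50 bases after the annotated start, read 5′ to 3′ on the strand of the gene. Psmb8 lies at chr17:34197945-34198244 on the plus strand, Psmb9 at chr17:34187281-34187580 on the minus strand, Psme1 at chr14:55578244-55578543 on the plus strand and Psmd4 at chr3:95042565-95042864 on the minus strand. Capitals mark matches, on either strand, to an interferon-stimulated response element (ISRE; GAAA, any 2 bases, GAAA) or a gamma-activated site (GAS; TTCNNNGAA).
Psmb8: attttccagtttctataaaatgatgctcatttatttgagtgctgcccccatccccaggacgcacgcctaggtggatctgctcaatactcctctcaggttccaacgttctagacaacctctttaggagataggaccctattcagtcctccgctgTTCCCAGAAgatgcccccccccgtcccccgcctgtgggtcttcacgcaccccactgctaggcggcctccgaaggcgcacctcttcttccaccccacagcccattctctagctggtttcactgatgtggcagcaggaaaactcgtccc
Psmb9: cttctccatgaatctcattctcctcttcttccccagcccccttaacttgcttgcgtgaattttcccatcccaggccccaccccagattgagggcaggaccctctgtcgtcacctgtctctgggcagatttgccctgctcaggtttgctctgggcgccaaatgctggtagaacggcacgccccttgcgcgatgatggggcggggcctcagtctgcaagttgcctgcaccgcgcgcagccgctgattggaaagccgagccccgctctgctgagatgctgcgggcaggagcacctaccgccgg
Psme1: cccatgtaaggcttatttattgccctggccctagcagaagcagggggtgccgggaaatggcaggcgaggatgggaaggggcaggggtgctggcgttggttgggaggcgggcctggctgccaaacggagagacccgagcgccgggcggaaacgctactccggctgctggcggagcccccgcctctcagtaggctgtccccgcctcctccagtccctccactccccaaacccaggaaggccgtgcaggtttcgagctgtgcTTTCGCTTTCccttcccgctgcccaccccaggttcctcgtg
Psmd4: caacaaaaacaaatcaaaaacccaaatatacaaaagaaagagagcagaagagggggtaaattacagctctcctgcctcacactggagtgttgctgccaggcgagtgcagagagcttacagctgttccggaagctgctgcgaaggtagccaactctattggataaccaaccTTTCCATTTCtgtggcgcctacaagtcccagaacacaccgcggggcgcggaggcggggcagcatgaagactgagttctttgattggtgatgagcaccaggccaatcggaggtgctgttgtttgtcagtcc
The Psmb8 window holds a GAS match whose first base lies 97 bases before the start, the Psme1 window an ISRE match that begins 10 bases after it, and the Psmd4 window an ISRE match 80 bases before it. The Psmb9 window holds neither. Over 32851 RefSeq promoter windows, 3.44% hold the ISRE letters and 8.3% the GAS letters. In the 4 windows shown, no marked matches overlap. Windows were given for 42 of the 50 genes and for all 5 interferon-inducible ones. Of these 5, 1 gene had an ISRE match and 1 a GAS match. Of 28 standard subunits with a window, 3 had an ISRE match (Psmd4, Psmd9 and Psmb3) and 1 a GAS match (Psmd2). The antioxidant response element letters TGACNNNGC, the kind of site bound by the proteasome regulator NRF1, were in 5 of the 28 and in none of the 5, against 12.4% of all windows. The NF-κB motif was in 5 of the 28 and in none of the 5, against 8.46% of all windows. These are counts of genes, while the percentages are shares of single windows. The 28 genes had 30 windows and the 5 had 6, and a match in any window counted. A match is a string of letters in a window and says nothing of binding.

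Depth, read from the steps of the deposited values, was 20.1 and 34.8 M reads in zfCTT, 88.1 and 88.2 M in mSTING, 55.7 and 171 M in dCTT, and 27.7 and 101 M in no_transgene. The tested proteasome genes rested on 140 to 91510 reads per library. Over all tested genes the 2 libraries of a group correlated at r of 0.965 in zfCTT, 0.977 in mSTING, 0.974 in dCTT and 0.946 in no_transgene. Replicate 1 of no_transgene stood apart: it was the highest of the 8 libraries for 18 of the 34 standard subunits. Replicate 1 of zfCTT was the highest for 10. No such share over all tested genes is given here, so these counts may not be particular to the proteasome genes. Tmem173, which encodes STING, was at 14.2 and 20.6 RPKM in zfCTT, 10.6 and 22.2 in mSTING, 22.7 and 15.0 in dCTT, and 3.23 and 2.42 in no_transgene. Of 8 macrophage markers, 7 reached 1 RPKM and Mertk did not, and their sum was 625 to 806 RPKM in zfCTT, 539 to 767 in mSTING, 839 to 891 in dCTT and 965 to 1144 in no_transgene. The part of that difference in the results below was not tested. Marker sums of 7 other cell types stayed at or below 1.83 RPKM in every library. The highest was nearly all Lck, from the T cell list. Lck was at 1.80 and 1.83 RPKM in zfCTT, 1.67 and 1.29 in mSTING, 0.69 and 0.80 in dCTT, and 0.48 and 1.02 in no_transgene. The other 4 T cell markers reached at most 0.0199 RPKM. In bulk RNA, fewer cells with a transcript and less of it per cell cannot be told apart.

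The interferon-inducible catalytic subunits were highest in zfCTT libraries and in replicate 1 of mSTING. Psmb9 was at 25.4 and 15.8 RPKM in zfCTT, 16.4 and 6.51 in mSTING, 5.89 and 5.56 in dCTT, and 5.45 and 5.51 in no_transgene. Each zfCTT and mSTING library lay above every dCTT and no_transgene library, though replicate 2 of mSTING only narrowly. The fold change of zfCTT over no_transgene was 1.70 ± 0.40 on the log2(RPKM + 1) scale (SE), with an adjusted p of 0.128 in limma. That did not pass the threshold of 0.05. Psmb9 shares 212 bases of exon with Tap1 on the other strand, 5.79% of its exon length, and the strand setting of the counting is not given.

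Psmb10, the counterpart of Psmb7, was at 122 and 114 RPKM in zfCTT, 113 and 61.1 in mSTING, 64.0 and 59.8 in dCTT, and 51.2 and 59.1 in no_transgene. The zfCTT libraries lay above all others, replicate 1 of mSTING just below them, and replicate 2 of mSTING within the range of the dCTT libraries. Psmb8, the counterpart of Psmb5, was at 94.0 and 73.4 RPKM in zfCTT, 83.0 and 54.4 in mSTING, 44.8 and 46.0 in dCTT, and 48.2 and 48.7 in no_transgene. Here every tailed library lay above every tailless one. The log2 fold changes of zfCTT over no_transgene were 1.08 ± 0.29 for Psmb10 (limma adjusted p 0.171) and 0.76 ± 0.24 for Psmb8 (limma adjusted p 0.249). Psmb8 shares 498 bases, 14.7% of its exon length, with the antisense gene Gm20496, and reads of the pair cannot be told apart without strand.

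The PA28 genes followed another order: both were highest in replicate 1 of mSTING. Psme1 was at 68.2 and 57.6 RPKM in zfCTT, 111 and 52.1 in mSTING, 58.6 and 55.3 in dCTT, and 61.4 and 54.3 in no_transgene. Apart from that 1 library the groups overlapped. Psme2 was at 96.9 and 65.4 RPKM in zfCTT, 117 and 51.9 in mSTING, 55.8 and 47.2 in dCTT, and 61.5 and 50.1 in no_transgene. Both zfCTT libraries lay above the tailless ones, while replicate 2 of mSTING lay among them. The log2 fold change of zfCTT over no_transgene was 0.51 ± 0.40 for Psme2 (limma adjusted p 0.627) and 0.12 ± 0.34 for Psme1 (limma adjusted p 0.921). Psme2 shares 59.3% of its 50-base words with Psme2b, a copy of it, so their reads can be split between them. Psme2b was at 22.4 and 21.1 RPKM in zfCTT, 42.6 and 15.7 in mSTING, 16.4 and 14.9 in dCTT, and 17.6 and 13.3 in no_transgene, with a log2 fold change of zfCTT over no_transgene of 0.48 ± 0.42 (limma adjusted p 0.679).

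**Figure D1:**
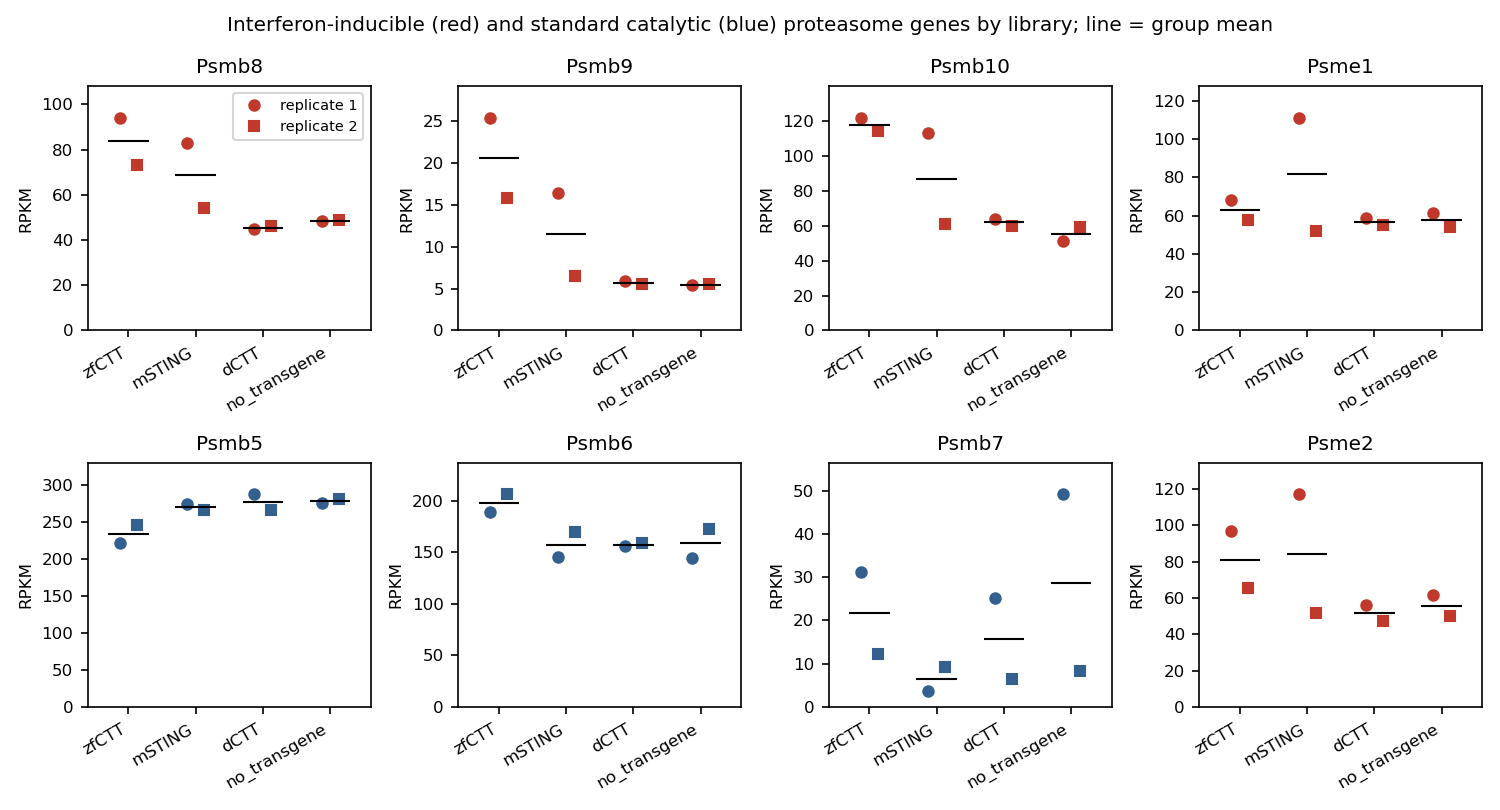
RPKM of the interferon-inducible genes (red) and the standard catalytic subunits (blue) in each library. Circles are replicate 1, squares replicate 2 and black lines the mean of the 2 libraries in a group; every axis starts at 0. Psmb8 and Psmb9 stand higher in all 4 zfCTT and mSTING libraries than in any dCTT or no_transgene library, and Psme1 is highest in 1 mSTING library.

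None of the 48 tested genes passed the test for zfCTT over no_transgene in limma, where 1.08% of all tested genes did. At an unadjusted p under 0.05 stood 4 of the 48, Psmb9, Psmb10, Psmb8 and Psmd4, against 13.4% of all tested genes. With limma-voom on recovered reads the count was also 0, where 0.357% of all tested genes passed, and 6 stood at an unadjusted p under 0.05, where 11.1% of all tested genes did. Both zfCTT libraries lay above both no_transgene libraries for 12 of the 48 genes, 4 of the 5 interferon-inducible ones and 5 of the 34 standard subunits, against 18.8% of all tested genes. The reverse held for 3, against 20.8%. Psme4, among the 12, reached 1 RPKM only in replicate 1 of zfCTT (1.56) and replicate 1 of mSTING (1.03). It thus entered the test only through tailed libraries where it was high, and its place in the count is no support. The median log2 fold change was 0.76 over the 5 genes, 0.00 over the 34 standard subunits and -0.04 over all tested genes. Within single libraries, the median log2(RPKM + 1) of the 5 minus that of the 34 was 0.54 and 0.46 in zfCTT. In no_transgene it was -0.26 and 0.50, so the groups overlapped. The standard median moved with 1 library: without replicate 1 of no_transgene the medians were 0.76 over the 5 genes and 0.33 over the standard subunits, a difference of 0.42. Without replicate 2 of no_transgene they were 0.77 over the 5 genes and -0.27 over the standard subunits, a difference of 1.04. Of all tested genes, 1.52% had a larger log2 fold change than Psmb9, 2.92% than Psmb10, 4.53% than Psmb8, 8.07% than Psme2 and 32.1% than Psme1. Without replicate 1 of no_transgene, the value of Psmb9 was 1.69 (limma adjusted p 0.390), that of Psmb10 0.98 (0.444) and that of Psmb8 0.76 (0.469).

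**Figure D2:**
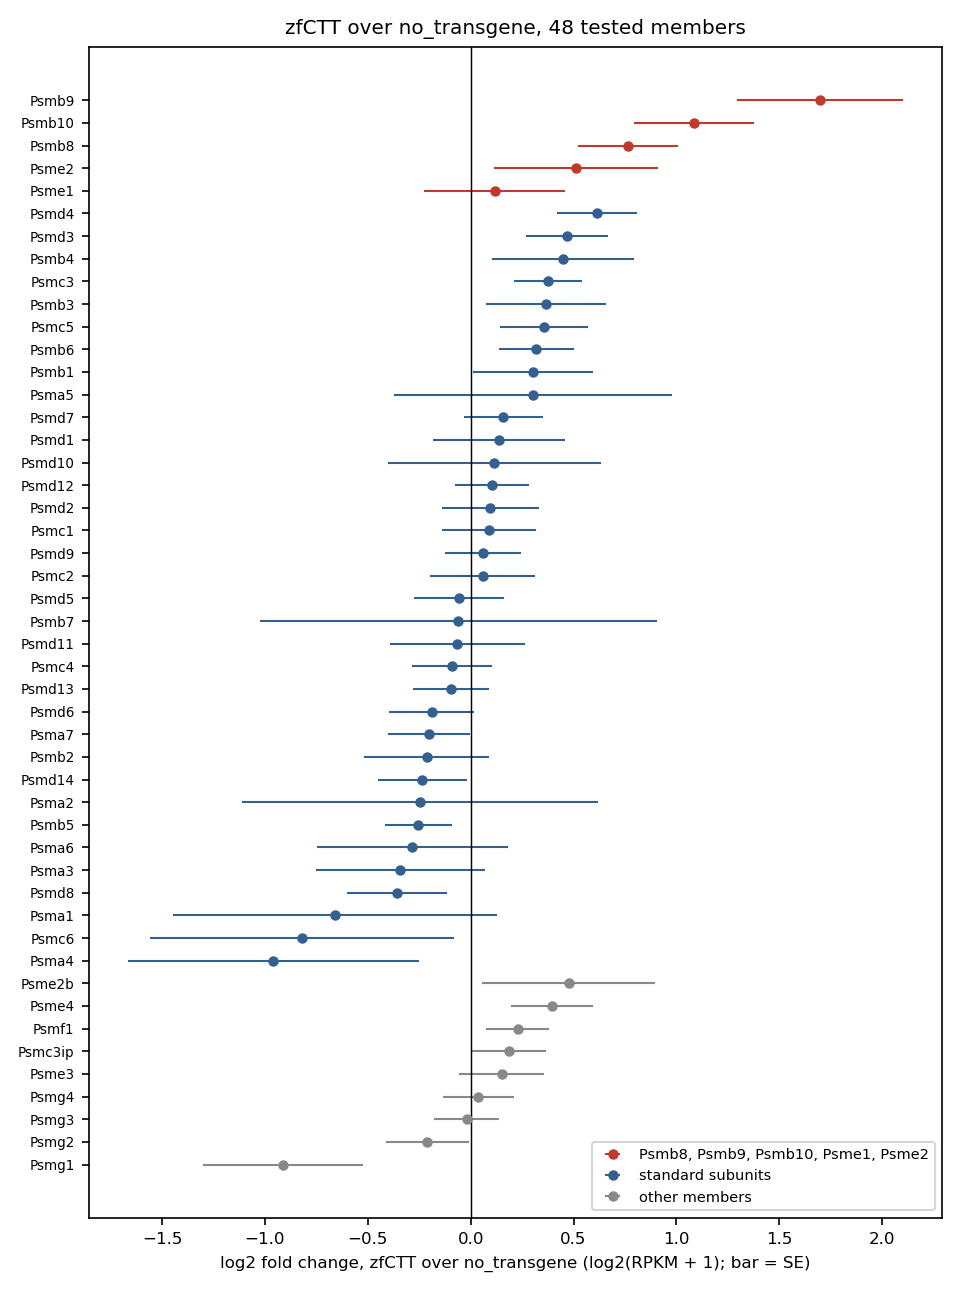
Log2 fold change of zfCTT over no_transgene for each of the 48 tested genes, with bars for the SE of the limma fit. Red marks Psmb8, Psmb9, Psmb10, Psme1 and Psme2, blue the standard subunits and grey the others; Psmb9 lies farthest to the right at 1.70, and the standard subunits lie on both sides of 0.

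Of the other genes named by their fold change, Psmd4, a ubiquitin receptor of the 19S cap, was the standard subunit furthest up. It was at 123 and 97.0 RPKM in zfCTT, 104 and 92.1 in mSTING, 82.2 and 72.3 in dCTT, and 68.1 and 74.1 in no_transgene. All tailed libraries lay above all tailless ones. Its log2 fold change of zfCTT over no_transgene was 0.61 ± 0.19 (limma adjusted p 0.241). Psmd3, a scaffold subunit of the cap, was at 92.5 and 79.2 RPKM in zfCTT, against 56.6 and 67.1 in no_transgene (0.47 ± 0.20, limma adjusted p 0.384). For Psmg1, a chaperone that starts assembly of the alpha ring, the zfCTT libraries were at 21.4 and 48.2 RPKM, against 77.6 and 48.7 in no_transgene (-0.91 ± 0.39, limma adjusted p 0.384). Its zfCTT libraries differed 2.25-fold from each other: the log2 fold change was -0.35 without replicate 1 of zfCTT and -1.48 without replicate 2, and -0.58 without replicate 1 of no_transgene. Psma4, an alpha-ring subunit, was at 11.1 and 10.1 RPKM in zfCTT and 52.3 and 8.47 in no_transgene (-0.96 ± 0.71, limma adjusted p 0.608). Its 50-base words are shared with Gm6542 for 25.63%, so reads of the pair can be split between them. Psmc6, a 19S ATPase, was at 2.95 and 2.18 RPKM in zfCTT and 13.2 and 1.75 in no_transgene (-0.82 ± 0.74, limma adjusted p 0.682). For Psma4 and Psmc6 the negative values rest on replicate 1 of no_transgene: without it the log2 fold change was 0.29 for Psma4 and 0.36 for Psmc6.

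In mSTING over no_transgene no gene of the 48 passed, nor did any gene in the table (0% of 13475), with none of the 48 at an unadjusted p under 0.05 in limma, against 3.47% of all tested genes, and 1 in limma-voom (3.8%), which also called 0 (0%). The 2 mSTING libraries disagreed on every interferon-inducible gene: replicate 1 was above replicate 2 by 1.53-fold for Psmb8, 2.52-fold for Psmb9, 1.85-fold for Psmb10, 2.13-fold for Psme1 and 2.25-fold for Psme2. The interferon-induced chemokine gene Cxcl10 moved the same way, at 335 and 68.9 RPKM. The log2 fold changes were 0.82 for Psmb9, 0.59 for Psmb10, 0.46 for Psmb8, 0.48 for Psme2 and 0.39 for Psme1, each with a limma adjusted p of 0.840. Leaving out replicate 1 of mSTING gave Psmb9 0.21, Psmb10 0.15, Psmb8 0.16, Psme1 -0.14 and Psme2 -0.10. Leaving out replicate 2 gave Psmb9 1.43, Psmb10 1.02, Psmb8 0.76, Psme1 0.93 and Psme2 1.06. Both mSTING libraries lay above both no_transgene libraries for 8 of the 48 genes, 3 of them interferon-inducible, against 15.3% of all tested genes, and below for 2, against 17%.

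In dCTT over no_transgene the 5 genes differed little between the groups. The log2 fold changes were -0.09 for Psmb8, 0.05 for Psmb9, 0.17 for Psmb10, -0.02 for Psme1 and -0.11 for Psme2, each with a limma adjusted p of 1. None of the 48 passed in limma (0% of all tested genes), none stood at an unadjusted p under 0.05 (0.267%), and limma-voom gave the same counts (0% called and 0.149% at an unadjusted p under 0.05 over all tested genes). Both dCTT libraries lay above both no_transgene libraries for 4 genes, against 7.75% of all tested genes, and below for 1, against 6.69%. The comparisons of zfCTT, mSTING and dCTT with no_transgene share the no_transgene libraries.

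Between the tailed states, zfCTT over mSTING, the log2 fold change was 0.88 ± 0.40 for Psmb9 (limma adjusted p 0.470), 0.50 for Psmb10 (0.519), 0.30 for Psmb8 (0.613), 0.03 for Psme2 (0.983) and -0.28 for Psme1 (0.742). These moved with the mSTING library kept: without replicate 1 of mSTING they were 1.49 for Psmb9, 0.93 for Psmb10 and 0.60 for Psmb8, and without replicate 2 they were 0.27 for Psmb9, 0.06 for Psmb10 and 0.0004 for Psmb8. Without replicate 1 of zfCTT, Psmb9 was 0.55 and Psmb8 0.12, and without replicate 2 of zfCTT Psmb8 was 0.48. Psme1 was 0.26 without replicate 1 of mSTING and -0.82 without replicate 2, and Psme2 0.61 without replicate 1 and -0.55 without replicate 2. None of the 48 passed, against 0.119% of all tested genes; 1, Psmb1, stood at an unadjusted p under 0.05 in limma, against 11% of all tested genes, and limma-voom called 0 (0.0594%) and also had 1 (9.63%). Of the 48, 18 lay above in both zfCTT libraries, against 24.9% of all tested genes, and 16 of these were standard subunits. Another 6 lay below in both, against 24.4%, the 4 Psmg assembly chaperones among them. In dCTT over mSTING the 5 genes were at -0.77 for Psmb9, -0.59 for Psme2, -0.56 for Psmb8, -0.42 for Psmb10 and -0.41 for Psme1, with a limma adjusted p of 1 for each after rounding. Without replicate 1 of mSTING they were -0.16 for Psmb9, -0.01 for Psme2, -0.26 for Psmb8, 0.02 for Psmb10 and 0.12 for Psme1. Without replicate 2 they were -1.37 for Psmb9, -1.17 for Psme2, -0.86 for Psmb8, -0.86 for Psmb10 and -0.95 for Psme1. Again none passed, as for all tested genes (0%), and none stood at an unadjusted p under 0.05 in limma (2.49%) or limma-voom (3.26%), which called 0 (0%). The dCTT libraries were both lower than either mSTING library for 5 genes, against 12.8% of all tested genes, and both higher for 1, against 16.2%. The difference between zfCTT and dCTT as such was not tested.

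Pooling the 2 tailed against the 2 tailless states, which uses all 8 libraries, gave a log2 fold change of 1.23 ± 0.29 for Psmb9 (limma adjusted p 0.130), 0.75 ± 0.21 for Psmb10 (0.204), 0.66 ± 0.17 for Psmb8 (0.180), 0.55 ± 0.28 for Psme2 (0.556) and 0.27 ± 0.24 for Psme1 (0.741). None of the 48 passed, against 0.913% of all tested genes; 4 stood at an unadjusted p under 0.05 in limma, against 10.7% of all tested genes, and limma-voom called 0 (1.03%) and also had 4 (10.3%). Every tailed library lay above every tailless library for 3 of the 48, Psmb8, Psmb9 and Psmd4, against 4.72% of all tested genes, and below for 0, against 3.57%. The median log2 fold change was 0.66 over the 5 genes, -0.05 over the standard subunits and -0.04 over all tested genes. Within single libraries, the median log2(RPKM + 1) of the 5 minus that of the standard subunits was 1.52 and 0.29 in mSTING. In dCTT it was 0.22 and 0.33, so tailed and tailless libraries overlapped. Without replicate 2 of mSTING, Psmb9 passed at 1.54 (limma adjusted p 0.0406), where 1.06% of all tested genes passed, and it was the single gene of the 48 that passed in any setting tried.

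Setting each inducible subunit beside the standard subunit it replaces, Psmb8 over Psmb5 was 0.423 and 0.298 in zfCTT, 0.302 and 0.204 in mSTING, 0.156 and 0.173 in dCTT, and 0.175 and 0.173 in no_transgene. All tailed libraries lay above the tailless ones. Psmb9 over Psmb6 was 0.134 and 0.0767 in zfCTT, 0.113 and 0.0383 in mSTING, 0.0378 and 0.0350 in dCTT, and 0.0377 and 0.0319 in no_transgene. Replicate 2 of mSTING lay barely above the tailless libraries. Psmb10 over Psmb7 was 3.91 and 9.28 in zfCTT, 30.1 and 6.60 in mSTING, 2.54 and 9.26 in dCTT, and 1.04 and 7.17 in no_transgene. These values crossed between groups, since Psmb7 itself spanned 13.1-fold. These are ratios of RPKM and rest on the exon lengths used, so only the change between libraries is read from them. Psmb5 was at 222 and 246 RPKM in zfCTT, against 276 and 282 in no_transgene (log2 fold change -0.25 ± 0.16), and Psmb6 at 189 and 206 RPKM in zfCTT, against 145 and 173 in no_transgene (0.32 ± 0.18). Psmb5 shares 57.1% of its 50-base words with other genes, Gm3375 first among them. The 5 genes made up 13.6% and 13.3% of the summed RPKM of the 5 and the 34 in zfCTT, 18.6% and 9.98% in mSTING, 9.21% and 9.98% in dCTT, and 8.10% and 9.96% in no_transgene.

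**Figure D3:**
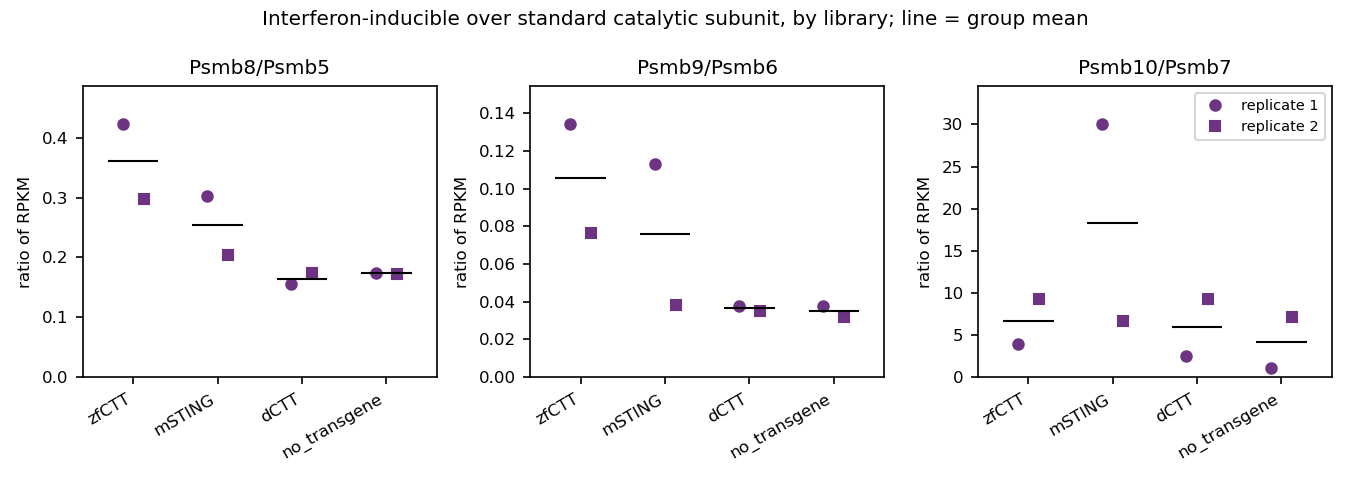
RPKM of each inducible catalytic subunit divided by that of the standard subunit it replaces, in each library (circles replicate 1, squares replicate 2, lines the group mean). Psmb8 over Psmb5 reaches 0.423 in a zfCTT library and is at most 0.175 in dCTT and no_transgene libraries, while Psmb10 over Psmb7 spreads from 1.04 to 30.1 without separating the groups.

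Some standard subunits varied widely between libraries of 1 group: Psmb7 differed 5.96-fold between the 2 no_transgene libraries. The highest library was over 4 times the lowest for 7 of the 34: Psma1, Psma2, Psma4, Psma5, Psmb7, Psmc6 and Psmd10. All 7 were highest in replicate 1 of no_transgene, for which no share over all tested genes is given. Of the 7, Psma5 shares 54.45% of its 50-base words with other genes, and Psma4 25.63%. Psmb7, the standard trypsin-like subunit, was at 31.1 and 12.3 RPKM in zfCTT, 3.75 and 9.27 in mSTING, 25.2 and 6.46 in dCTT, and 49.1 and 8.25 in no_transgene. Its replicate 1 was above replicate 2 by 2.54-fold in zfCTT, 3.90-fold in dCTT and 5.96-fold in no_transgene. In mSTING replicate 1 was below, at 0.405 of replicate 2. Psmb7 shares 405 bases of exon, 11.8% of its exon length, with Nek6 on the other strand, and the strand setting is not given. At the other end, 12 of the 34 varied up to 1.5-fold, among them Psmb5 and Psmb6. Over all tested genes the median ratio of highest to lowest library was 1.91, with 16.7% over 4-fold and 20.7% up to 1.5-fold. Over the standard subunits these were 1.73, 20.6% and 35.3%. The spread went with base composition: median GC content of the longest transcript was 42.3% for the 7, 49.2% for the 15 between 1.5 and 4-fold and 51.3% for the 12. The deviation of a library from the mean of the 8 was also correlated with GC content across the 34 subunits. For replicates 1 and 2, r was -0.738 and 0.651 in no_transgene and -0.202 and 0.398 in zfCTT. In mSTING r was 0.41 and 0.605, and in dCTT -0.375 and 0.574. These values describe genes of the same libraries, which are not replicates. Over 13457 genes r ran from -0.348 to 0.209. The part of GC content in the differences between groups was not tested beyond removing its trend, which left the value of Psmb9 at 1.70, Psmb10 at 1.08 and Psmb8 at 0.77 for zfCTT over no_transgene.

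**Figure D4:**
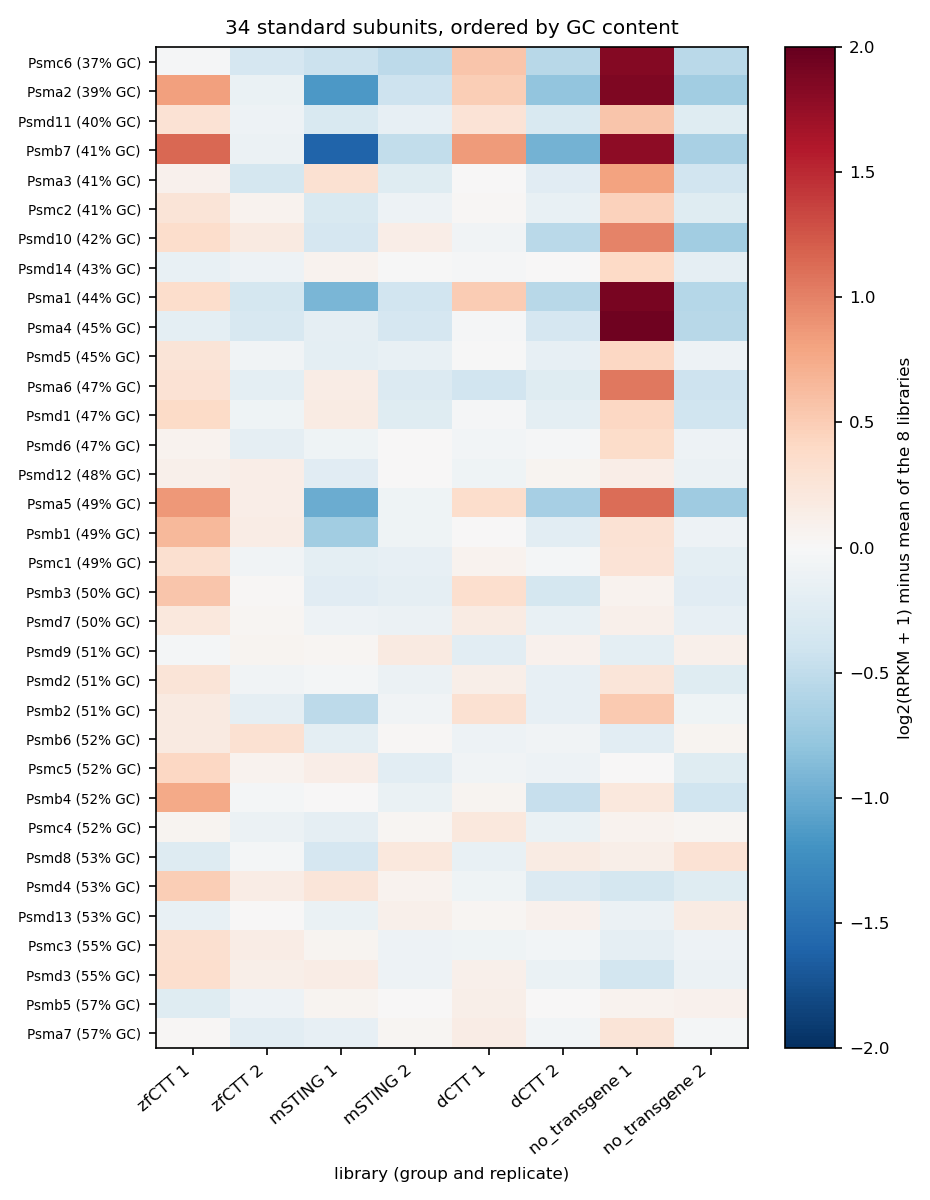
Deviation of log2(RPKM + 1) from the mean of the 8 libraries for the 34 standard subunits, in rows from low to high GC content, with the libraries in columns (zfCTT, mSTING, dCTT, no_transgene, replicates 1 and 2). Many low-GC rows are highest in replicate 1 of no_transgene, which is the highest library for 18 of the 34.

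**Figure D5:**
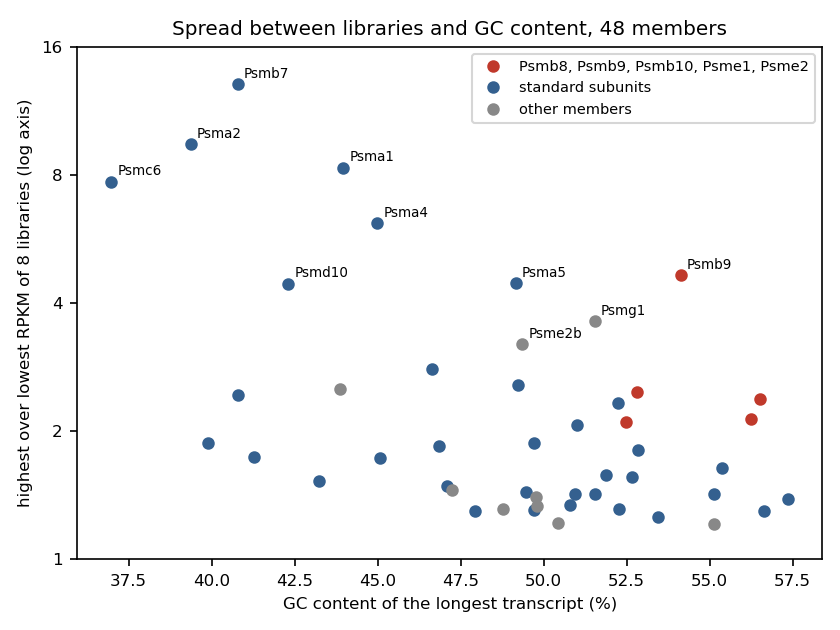
Ratio of the highest to the lowest library in RPKM (log axis) against GC content of the longest transcript, for the 48 tested genes (red the 5 interferon-inducible genes, blue the standard subunits, grey the others). Psmb7, at 13.1-fold, is the most variable, and the 7 standard subunits over 4-fold have a median GC content of 42.3%.

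By role, median levels per length over the 8 libraries ran from 6.98 (Psma1) to 92.2 RPKM (Psma7) in the alpha ring. They were 79.1 (Psmb3) to 193 RPKM (Psmb2) in the non-catalytic beta subunits and 2.08 (Psmc6) to 111 RPKM (Psmc5) in the 19S ATPases. The Psmd genes ran from 2.69 (Psmd5) to 88.8 RPKM (Psmd7), and the Psmg assembly chaperones from 29.96 (Psmg3) to 113 RPKM (Psmg4). Among the other activators, Psme3, a nuclear activator, was at 61.6 RPKM and Psme4, a large activator known from testis, at 0.78 RPKM. Psmf1, an inhibitor of the core, was at 10.7 RPKM. Psmc3ip carries the letters of the rule but encodes a recombination factor and no subunit. Psma8, a testis-specific alpha subunit, had no read in any library, where 3 reads would be 0.00702 to 0.06 RPKM, and Psmb11, the thymus-specific beta subunit, had 0 to 8 reads.

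Around the proteasome, Irf1, a transcription factor known to act on Psmb9, was at 109 and 74.3 RPKM in zfCTT, 24.6 and 8.21 in mSTING, 4.60 and 4.02 in dCTT, and 4.05 and 3.67 in no_transgene (4.23 ± 0.46, limma adjusted p 0.0203). It rose in zfCTT libraries, and its mSTING libraries lay between those and the tailless ones. The call was near the threshold: Irf1 passed in 13 of 21 other settings and missed it when any 1 zfCTT, dCTT or no_transgene library was left out (limma adjusted p 0.0553 to 0.177). Nlrc5, which drives MHC class I genes, was at 3.86 and 2.64 RPKM in zfCTT against 0.747 and 1.162 in no_transgene (1.11 ± 0.20, limma adjusted p 0.0638). Nfe2l1, the gene of NRF1, was at 32.1 and 25.4 RPKM in zfCTT, against 20.3 and 26.4 in no_transgene (0.29 ± 0.21, limma adjusted p 0.600). Of 11 genes of peptide transport and MHC class I, none passed here in limma, where 1.08% of all tested genes did, or in limma-voom (0.357%). At an unadjusted p under 0.05 stood 6 of the 11 in each, against 13.4% of all tested genes in limma and 11.1% in limma-voom, and the median log2 fold change was 1.05, against -0.04 over all tested genes. Of these, Tap1, a peptide transporter subunit and neighbour of Psmb9, came nearest at 26.8 and 17.3 RPKM in zfCTT, against 1.995 and 2.234 in no_transgene (2.86 ± 0.46, limma adjusted p 0.0506). It passed in tailed over tailless (2.16 ± 0.33, limma adjusted p 0.0459), and there in 12 of 20 other settings. None of 8 proteasome-associated genes, such as the maturation factor gene Pomp, passed in any of the 6 comparisons in limma or limma-voom; over all tested genes 0% to 1.08% passed in limma and 0% to 1.03% in limma-voom. At an unadjusted p under 0.05 in limma for zfCTT over no_transgene stood 1 of the 8, Sem1, against 13.4% of all tested genes.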

How the data were processed

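Polyadenylated RNA of 8 libraries was sequenced single-end, per the labels' protocols. The authors deposited RPKM for 53715 genes. Tools were cutadapt 1.16 and HISAT2 2.1.0, with builds GRCm38 and mm10, per the submitters' processing notes, which give no roles. The counter, its annotation and whether it used strand: not given in the sources used here. Groups came from the transgene label. Symbols were found for 53620 identifiers. Exon lengths and GC content came from GENCODE M21. Depth was read from RPKM times exon length, which came out whole (tolerance 0.05 read) for 95.0% to 95.6% of values above 0. Among genes of 100 reads or more, 75.0% to 82.6% were unlike in the 2 libraries of a group by more than counting error allows, so no pair was counted as 1 sample.

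Tests ran in limma 3.58.1 (R 4.3.3). Values were log2(RPKM + 1), which understates the change of low genes. The fit had an intensity trend and 13475 genes at 1 RPKM or more in at least 2 libraries. One fit held all 4 group means (4 residual degrees of freedom), and p-values were Benjamini-Hochberg adjusted over all tested genes at 0.05. The fit was also run on simulated data with known changes. Its noise was independent between libraries, without the replicate and GC patterns seen here, so it cannot show how the fit handles those. Tables were made with Python 3.11.15, numpy 2.4.6 and pandas 2.3.3. Alternatives covered pseudocount, filter, scaling, trend, the groups in the fit, protein-coding genes alone, limma-voom on recovered reads, a replicate block, each library left out and, chosen after seeing the data, removal of a GC trend. The genes and lists were chosen with earlier results of these data known. Named were the 5 inducible genes, Psmb5, Psmb6 and Psmb7, any gene that passed, the 3 others with the highest and the 3 with the lowest log2 fold change of zfCTT over no_transgene, and those under 1 RPKM on average; Psmb1, Psmb3, Psmb4, Psma6 and others were named for ranges, matches or flags after their values were seen. Results of some listed genes are not reported here.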

Additional observations from a re-analysis of the deposited data

Results flagged for a closer look

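With 2 libraries a group, no single group was examined for a library far from the rest. The 4 tailed and the 4 tailless libraries were each taken as a set, and a library was picked out where its gap to the nearest other, divided by the range of the set, exceeded Dixon's 95% critical value. That held for 5 of 96 sets, and chance gives about 1 in 20. Psmb4, a non-catalytic beta subunit, was at 183.4 RPKM in replicate 1 of zfCTT, against 98.7 to 109 in the other tailed libraries. Psmb10 was at 61.14 RPKM in replicate 2 of mSTING, against 113 to 122 in the other tailed libraries. Replicate 1 of no_transgene gave the other 3: Psma6 at 110.9 RPKM against 39.5 to 44.6, Psma4 at 52.31 against 8.47 to 12.6, and Psmd6, a cap subunit, at 22.72 against 16.2 to 17.2 in the other tailless libraries.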

How the results depend on the processing

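Over 21 settings, the count of the 48 genes that passed was 0 in 124 of 125 setting-and-comparison pairs. In 65 of the 125 no gene of the whole table passed, and over all 125 the share of tested genes that passed ran from 0% to 3.75%, so many of these settings call few genes of any kind. The other was tailed over tailless without replicate 2 of mSTING, where 1 gene passed (Psmb9); over leaving out each library in turn that count ran from 0 to 1. Pooling the groups could not be refitted with only the groups compared, since it uses all of them. The median of the 5 inducible genes minus that of the standard subunits, 0.76 for zfCTT over no_transgene, ran from 0.42 to 1.04 on the log2 scale. Psmb9 in that comparison ran from 1.37 to 2.02 (adjusted p 0.0529 to 0.654).

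Signs turned mostly for values near 0 or where 1 library decided, and the cause was not tested. Leaving out each library in turn, in fits that assume a lone library of a group to vary like the other groups, gave these ranges of log2 fold change. For zfCTT over no_transgene Psme1 ran from -0.0023 (without replicate 1 of zfCTT) to 0.2383, and without replicate 1 of no_transgene the top values were reached for Psmb7 (-1.2786 to 1.1598), Psma4 (-2.2051 to 0.2876) and Psmc6 (-2.0066 to 0.3633); leaving out replicate 1 of dCTT as well gave the same top values. Psmb7 was 0.578 without replicate 2 of zfCTT, 0.0417 in limma-voom and 0.0154 with the GC trend removed. Without replicate 1 of mSTING the sign turned for mSTING over no_transgene in Psme1 (-0.1437 to 0.9334) and Psme2 (-0.0956 to 1.0616), for zfCTT over mSTING in Psme1 (-0.8154 to 0.2617), for dCTT over mSTING in Psmb10 (-0.8558 to 0.0175) and Psme1 (-0.9524 to 0.1247), and for tailed over tailless in Psme1 (-0.0033 to 0.5352). For zfCTT over mSTING Psme2 ran from -0.5495 (without replicate 2 of mSTING) to 0.6076, and was -0.2514 without replicate 1 of zfCTT and -0.0473 on median-centred values. For dCTT over no_transgene Psme1 ran from -0.1063 to 0.0684 and Psme2 from -0.2556 to 0.0358, both highest without replicate 1 of no_transgene; without replicate 2 of dCTT they were 0.0213 for Psme1 and 0.0084 for Psme2. Psme1 there was 0.028 without replicate 1 of both groups, and Psmb9 was -0.0145 with the GC trend removed.

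With the replicate number as a block the count was 0 in all 6 comparisons, where 3.21% of all tested genes passed for zfCTT over no_transgene (1.08% without the block) and 2.39% for tailed over tailless (0.913%), and the difference of medians for zfCTT over no_transgene stayed 0.76. Differences between replicates 1 and 2 correlated at r of 0.762 for dCTT with no_transgene, 0.433 for zfCTT with no_transgene and 0.399 for zfCTT with dCTT. For mSTING, r was 0.264 with zfCTT, 0.0318 with dCTT and 0.0364 with no_transgene. Whether the replicate numbers pair libraries was not tested, and the main fit leaves them out. For zfCTT over no_transgene, 6 of 21 settings put Tap1 past the threshold: the block (adjusted p 0.0297), both other pseudocounts, protein-coding genes alone and either mSTING library left out. Read floors cover counting error only.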
